A study of Mus musculus with 10 samples.

Results

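The mitochondrial ribosomal protein genes were taken as every row of the deposited expression table whose Ensembl ID maps to a symbol that starts with Mrpl or Mrps followed by a digit. There were 77 such genes among the 16154 in the table, 76 of them protein coding and 1, Mrpl48-ps, a pseudogene. Another 6 annotated genes with such symbols (Mrpl33, Mrpl53, Mrpl23-ps1, Mrps36-ps1, Mrps36-ps2 and Mrps36-ps3) were not analysed here. The study sequenced polyA RNA of alveolar type II cells, the surfactant-secreting cells of the lung epithelium, sorted from C57BL/6 mice aged 8 to 10 weeks. It compared 5 wild type libraries, numbered 2 to 6, with 5 HOIL-1L knockout libraries, numbered 1 to 5. HOIL-1L, the product of Rbck1, is a subunit of the linear ubiquitin chain assembly complex. The sample labels give the knockout genotype as HOIL-1L -/-, while the description of the series names CreSPC/HOIL-1L fl/fl mice, in which a Cre driven by the surfactant protein C promoter deletes a floxed allele in cells that express it. Whether the wild type mice carried Cre or floxed alleles is not stated in the labels.

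The mitochondrial ribosome translates the few proteins that the mitochondrial genome encodes, all of them parts of the respiratory chain and ATP synthase. Its 2 ribosomal RNAs are transcribed inside the organelle, but its proteins come from nuclear genes and are imported, so that their supply depends on genes spread over many chromosomes. Some of these proteins descend from those of bacterial ribosomes, and others were added during the evolution of mitochondria. In alveolar type II cells the respiratory chain supports a costly synthesis and secretion of surfactant lipids and proteins.

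The deposited values are counts that the authors had normalized, with column totals of 6.94 to 7.43 M, where M stands for mega. They were divided by the mean total, 7.14 M, and are given below as normalized counts per M. If the lowest values of a library are taken to stand for single reads, its depth was about 7.69 to 13.2 M reads, and 1 per M about 7.87 to 13.4 reads. These depths are rough, since low values only cluster near multiples of such a step and whole reads could not be recovered. Surfactant and other type II markers summed to between 176866 and 212779 per M in every library. Club cell markers summed to between 4635 and 9179, markers of type I cells to between 2098 and 2734, ciliated cell markers to at most 324 and endothelial markers to between 7.50 and 14.3. The macrophage and monocyte list summed to between 29585 and 40884, of which Lyz2, a lysozyme gene that type II cells also express, made up 29537 to 40837, while Ptprc stood at 2.61 or less, Marco at 1.25 or less and Csf1r at 9.67 to 16.5. Of the same list, Chil3 stood at 0.799 to 22.6, Cd68 at 3.54 to 11.6, Mrc1 at 4.37 or less and Itgam at 0.365 or less. Only 2 of 5 lymphocyte markers were in the table, with a sum of at most 0.297, and 0 of 3 neutrophil markers were. Rbck1 stood at 56.1 to 57.8 in wild type 3 to 6 and at 29.8 to 38.8 in knockout 2 to 5, but at 29.7 in the library labelled wild type 2 and at 59.3 in the library labelled knockout 1. Since Rbck1 goes against the label in these 2 libraries, results between genotypes are also given for the other 8. By Xist and 4 Y-linked genes, wild type 2, knockout 2 and knockout 3 came from females, with Xist at 39.0 or more, and the other 7 from males, with Xist at 3.16 or less. The mouse numbers in the titles form 2 sets, a lower-numbered (wild type 2 and 3, knockout 1 to 3) and a higher-numbered one (wild type 4 to 6, knockout 4 and 5), and the labels do not say what the mice of a set share. All females belong to the lower-numbered set. Each title carries its own mouse number, and p-values measure the spread between these libraries only.

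All Mrpl and Mrps genes except the pseudogene reached the filter of 1 per M in at least 5 libraries. Their sum made up 0.168% of the table. Mean levels ran from 6.22 per M for Mrps22 to 58.3 for Mrpl48, with a median of 18.6, beside a median of 19.5 over all 12946 genes tested. In 59 genes of the family every library held at least 10 per M. The pseudogene Mrpl48-ps had at most 0.209 per M and stood at 0 in 5 libraries, and no fold change is given for it. By place in the ribosome, 49 genes encode proteins of the large subunit, 29 with a bacterial counterpart and 20 specific to mitochondria, and 26 encode proteins of the small subunit, 16 with a bacterial counterpart and 10 without. Mrps30 and Mrps18a were counted with the large subunit, where structures place their products despite the symbol. Mrps36, whose product is now known as a component of the alpha-ketoglutarate dehydrogenase complex, was counted with neither.

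Levels between genes were compared per kb of annotated exon. The median of the family was 8.33 per M per kb, beside 4.62 for all genes tested, and lay at percentile 66.4 of them. Large subunit genes specific to mitochondria had a median of 10.1 and large subunit genes with a bacterial counterpart one of 8.43, while the small subunit medians were 6.74 with and 4.48 without a bacterial counterpart. The 4 highest per kb were Mrpl14 (49.2), Mrps21 (44.7), Mrpl52 (34.2) and Mrpl28 (30.7), and the 4 lowest were Mrpl15 (1.47), Mrps22 (1.56), Mrps10 (1.73) and Mrpl35 (1.74). Members of both subunits stood at either end of this range. Annotated exons include those of transcripts that these cells may not use, such as the 8487 exon bases of Mrpl15, which lowers the value of a gene with many annotated transcripts.

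**Figure D1:**
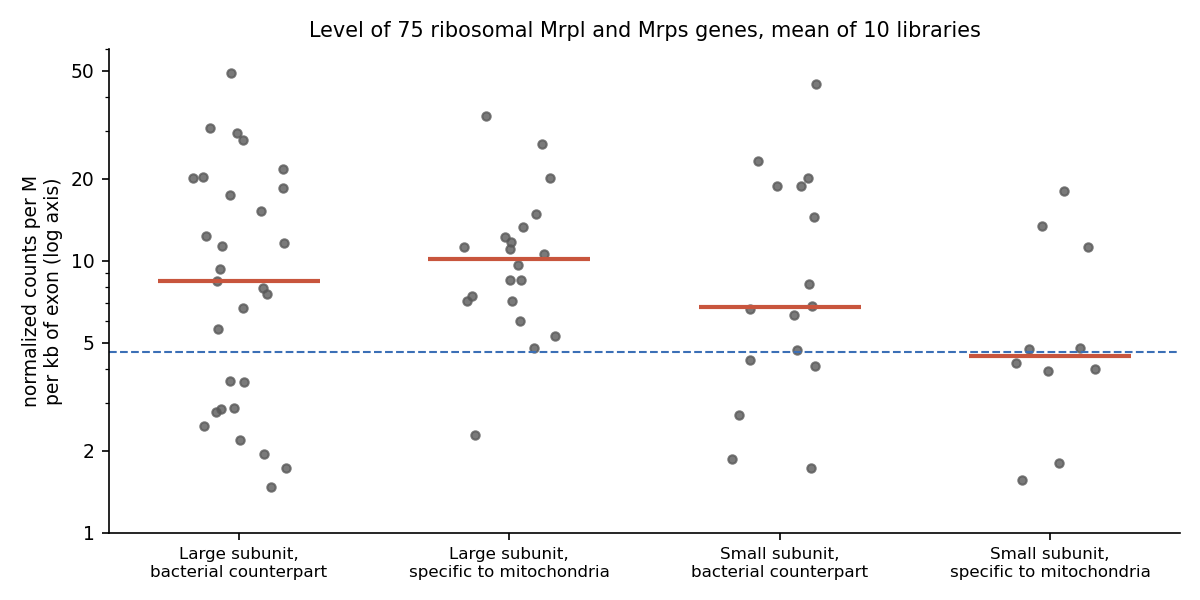
Mean level over 10 libraries of each of 75 ribosomal Mrpl and Mrps genes, in normalized counts per M per kb of annotated exon on a log axis, by subunit and by whether the protein has a bacterial counterpart. Each point is a gene, red lines are medians and the dashed blue line is the median of all genes tested, 4.62. The medians of the 4 groups are 8.43, 10.1, 6.74 and 4.48 from left to right.

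The family varied across libraries about as much as all genes tested. The median SD of its log2 levels over the 10 libraries was 0.180, beside 0.188 for all genes tested. The steadiest of the family were Mrps25 (0.076), a small subunit protein without a bacterial counterpart, Mrpl48 (0.083) and Mrpl18 (0.086). The most variable were Mrpl32 (0.376), Mrpl11 (0.346), the counterpart of the protein at the base of the bacterial stalk, and Mrps24 (0.315), the counterpart of bacterial uS3 at the mRNA entry channel. Of the exon bases of Mrps25, 69.8% are shared with Nr2c2 on the opposite strand, so that reads may have been added to its value or withheld from it. In all, 31 of the 77 genes share exon bases with another annotated gene, and the strand setting used in counting is not given in the sources used here.

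Between genotypes, no gene of the family passed the test, and almost all stood slightly lower in the knockout libraries. With all 10 libraries, 0 of 76 genes passed limma-trend at an adjusted p of 0.05, as did 0 of all 12946 genes tested (0%). At an unadjusted p under 0.05, 5 of the 76 were lower (Mrps24, Mrpl51, Mrpl58, Mrps6 and Mrpl54) and 0 higher, beside 3.28% lower and 6.20% higher among all genes. The log2 fold change lay below 0 in 69 of the 76, with a median of -0.11, beside 6308 of 12946 and a median of 0.005 among all genes tested. The exceptions were Mrpl32, Mrpl38, Mrpl39, Mrpl43, Mrpl9, Mrps30 and Mrps5, of which Mrpl32 had the highest value. In 73 of the 76 the 95% interval of the fold change lay within 1.5-fold either way, with Mrpl11, Mrps24 and Mrps6 as the exceptions, so that larger differences in the other genes lie outside their intervals. This held for 71 of the 76 in the 8 libraries, where Mrpl1 and Mrpl32 were exceptions too.

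The shift was of like size in both subunits. Large subunit genes had a median log2 fold change of -0.10 with 43 of 49 below 0, and small subunit genes one of -0.12 with 25 of 26 below 0. With the 8 libraries, 52 of 12946 genes passed (0.402%) and 0 of the 76. The family then had 67 of 76 genes below 0 and a median of -0.13, large subunit genes 43 of 49 and -0.10, and small subunit genes 23 of 26 and -0.14. At an unadjusted p under 0.05, 4 were lower and 1 higher, beside 5.25% and 7.84% of all genes. In bulk samples, fewer cells of a type and less RNA per cell cannot be told apart.

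**Figure D2:**
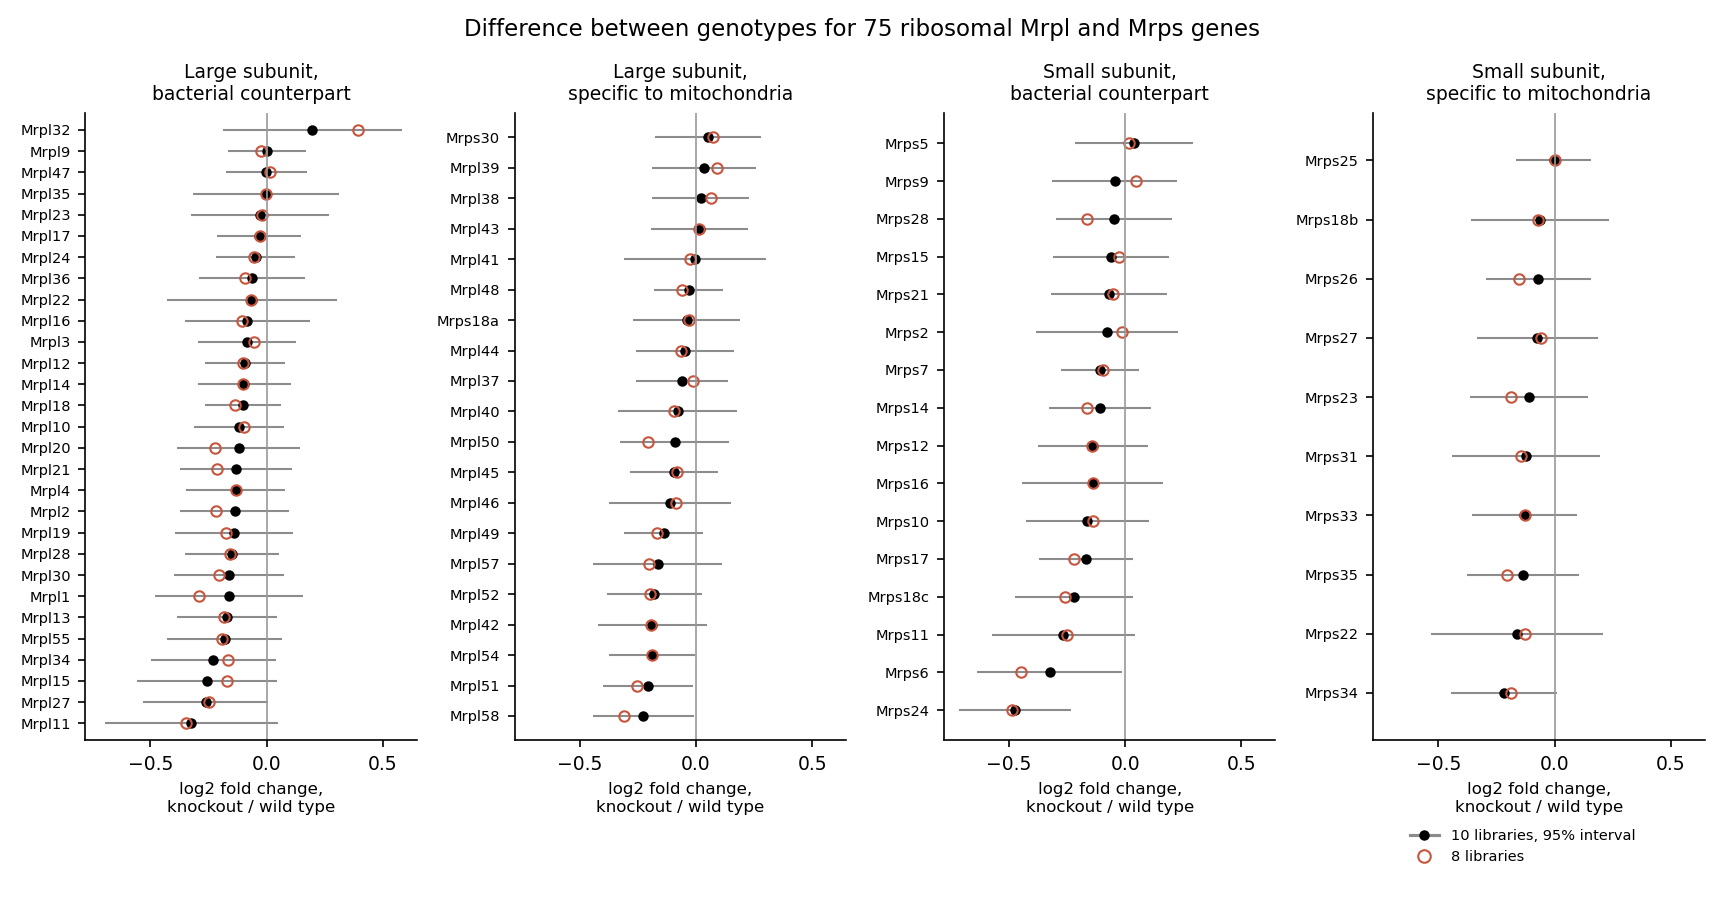
Log2 fold change (knockout over wild type) of each of 75 ribosomal Mrpl and Mrps genes, by subunit and bacterial counterpart, ordered by value. Black points with grey lines are the fit of 10 libraries with its 95% interval, and open red circles the fit of the 8 libraries without wild type 2 and knockout 1. Most points lie just left of 0, with Mrps24 at -0.47 lowest and Mrpl32 at 0.20 highest.

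The summed level of the family shows which libraries carried this difference. The 77 genes summed to 1823, 1841, 1885, 1640 and 1521 per M in wild type 2, 3, 4, 5 and 6, and to 1729, 1640, 1607, 1550 and 1531 in knockout 1 to 5. Wild type averaged 1742 ± 155 (SD, n = 5) and knockout 1611 ± 78.9 (SD, n = 5). Wild type 2, 3 and 4 lay above every knockout library, while wild type 5 lay among them and wild type 6 below all 5, so that the groups overlapped. Of the 76 tested genes, 27 had their highest value in wild type 4, 18 in wild type 2 and 13 in wild type 3. The lowest value fell in knockout 5 for 20 genes and in wild type 6 for 15.

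Another property of the libraries differed in a like order. Over all genes tested, the log2 level relative to the mean of the libraries changed by -0.069 per doubling of exon length in wild type 4, -0.037 in wild type 2 and -0.030 in wild type 3. It changed by 0.026 in wild type 6, 0.026 in knockout 4, 0.033 in knockout 3 and 0.047 in knockout 5. Wild type 5 (0.004), knockout 1 (-0.003) and knockout 2 (0.002) lay near 0. Wild type 2, 3 and 4, the highest libraries for the family, were also those in which genes with short exons in general stood highest. The family has a median exon length of 2394 bases, beside 4290 for all genes tested. Among all genes tested, the median log2 fold change between genotypes over 4 classes of exon length with equal numbers of genes ran from -0.064 in the shortest through -0.027 and 0.020 to 0.083 in the longest. In the same classes the family had medians of -0.11 (40 genes), -0.13 (17 genes), -0.046 (13 genes) and -0.15 (6 genes). With the exon length trend removed from each library, 61 of 76 genes were below 0 with a median of -0.07 in the 10 libraries, and 60 of 76 with a median of -0.08 in the 8. The part of exon length or RNA quality in the remaining difference was not tested.

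**Figure D3:**
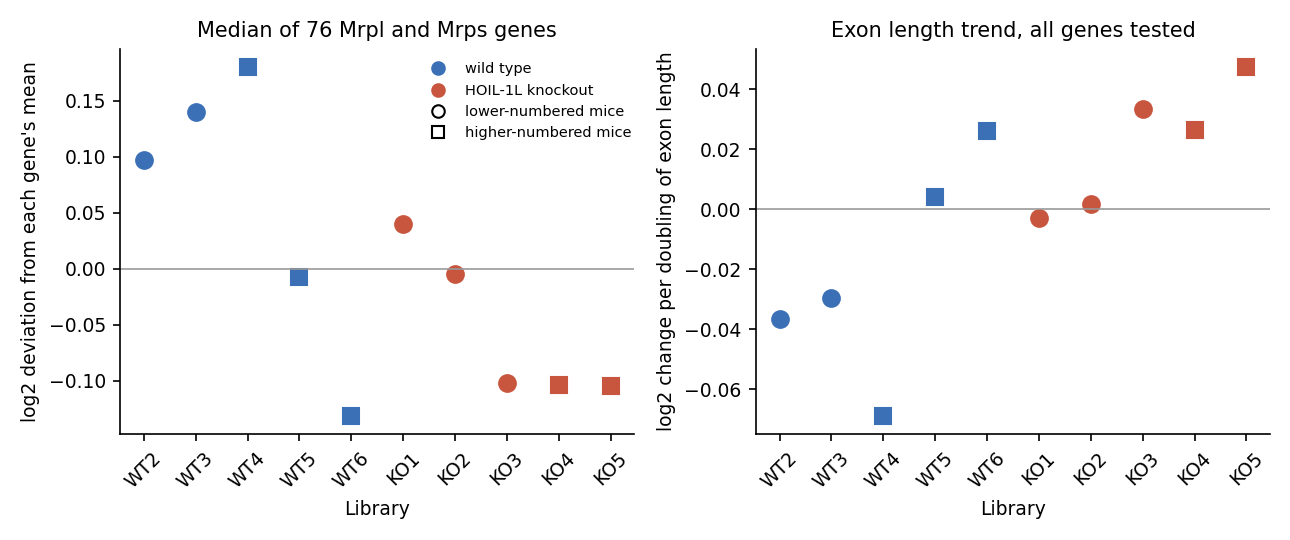
Left, median over the 76 tested Mrpl and Mrps genes of the log2 deviation from each gene's own mean over the libraries, by library. Right, slope over all genes tested of the log2 deviation on exon length, per doubling of length. Blue is wild type and red knockout, circles are the lower-numbered and squares the higher-numbered mice. Wild type 2, 3 and 4 are highest on the left and lowest on the right, and wild type 6 stands with knockout 3 to 5 in both.

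Mrps24 had the smallest p of the family in both sets of libraries. It stood at 35.6, 34.9, 34.0, 31.6 and 24.6 per M in wild type 2 to 6, and at 26.6, 23.3, 24.9, 20.7 and 19.1 in knockout 1 to 5. Wild type 6 lay among the knockout libraries and the other 4 wild type libraries above all of them. The means were 32.1 ± 4.49 and 22.9 ± 3.04 (SD, n = 5 each), a knockout level of 71.4% of wild type. The log2 fold change was -0.47 ± 0.11 (SE), with an adjusted p of 0.314 by limma, and in the 8 libraries -0.49 ± 0.12 with an adjusted p of 0.0977. Within the lower-numbered mice the difference was -0.49 (limma adjusted p = 0.322) and within the higher-numbered -0.57 (0.204). It passed with the mouse number set as a covariate in the 8 libraries (-0.55, limma adjusted p = 0.0325, with 0.541% of all genes called), and in the 8 libraries without wild type 6 (-0.60, 0.0236, with 0.772% called). It also passed in replicates 2 to 5 of both groups, which leaves out wild type 6 and knockout 1, both without a block (-0.62, limma adjusted p = 0.0289, with 0.17% of all genes called) and with replicate numbers as a block (-0.62, 0.0099, with 2% called). All of these calls except that with the mouse number set as a covariate came without wild type 6. Replicates 2 to 5 keep wild type 2, the highest library for Mrps24, although its Rbck1 of 29.7 per M goes against its label. With the exon length trend removed, the log2 fold change of Mrps24 was -0.41 in the 10 libraries.

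Mrps24 (chr11:5703983-5715680, minus strand, GRCm38, GENCODE M21) shares 226 of its 1466 exon bases with Urgcp on the same strand, from which reads may have been added or withheld. Urgcp itself averaged 47.8 ± 1.82 (SD, n = 5) in the wild type libraries and 48.5 ± 3.64 (SD, n = 5) in the knockout libraries. The RefSeq start of Mrps24 lies inside the longer GENCODE gene. The 250 bases before that start (chr11:5707702-5707951, minus strand, 58.8% GC) are shown because this gene had the smallest p of the family; they hold none of the motifs described further on, though the window of 300 bases searched there has 1 YY1 match that reaches into the 50 bases after the start.

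Mrps24: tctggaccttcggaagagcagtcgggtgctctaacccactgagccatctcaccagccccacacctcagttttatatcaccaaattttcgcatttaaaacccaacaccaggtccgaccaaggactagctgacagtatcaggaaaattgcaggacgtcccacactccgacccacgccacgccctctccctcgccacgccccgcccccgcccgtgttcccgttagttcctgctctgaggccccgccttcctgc

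Mrps6, the counterpart of bacterial S6 on the platform of the small subunit, was the only gene of the family whose genotype groups did not overlap in the 8 libraries. It stood at 10.5, 11.2, 11.3, 10.9 and 9.59 per M in wild type 2 to 6, and at 11.9, 9.22, 8.20, 6.04 and 7.78 in knockout 1 to 5. Knockout 1 held the highest value of all 10 and knockout 2 to 5 the lowest 4. Among all genes tested, 2.87% were lower without overlap in the 8 libraries, and 1 gene of 76 is below that share. The log2 fold change was -0.33 ± 0.15 (SE, limma adjusted p = 0.510) in the 10 libraries and -0.45 ± 0.14 (0.210) in the 8. Mrps6 (chr16:92058270-92112227, plus strand) shares 159 exon bases with Slc5a3 and 305 with Gm49711, both on the same strand and with first exons at the same place. The stretch before the first annotated exon (chr16:92058086-92058269, 75.5% GC) is shown for this shared start and holds none of the motifs.

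Mrps6: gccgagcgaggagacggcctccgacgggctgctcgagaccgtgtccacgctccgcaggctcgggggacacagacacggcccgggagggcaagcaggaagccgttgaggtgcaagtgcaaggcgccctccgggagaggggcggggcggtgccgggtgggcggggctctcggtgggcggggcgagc

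Mrpl58 encodes a peptidyl-tRNA hydrolase that is built into the large subunit and frees stalled ribosomes. It stood at 33.7, 47.0, 43.8, 43.4 and 32.2 per M in wild type 2 to 6, and at 36.2, 33.4, 33.9, 33.3 and 32.1 in knockout 1 to 5. The 5 knockout libraries spanned a narrow range, with wild type 2 and 6 inside it and wild type 3, 4 and 5 well above. The log2 fold change was -0.23 ± 0.10 (SE, limma adjusted p = 0.510), and in the 8 libraries -0.31 ± 0.11 (0.238). Without wild type 6 as well it was -0.43 and passed (limma adjusted p = 0.0432), so that 1 library decides this call. Mrpl58 lies at chr11:115403752-115412674 on the plus strand, and the 250 bases before its start (chr11:115403502-115403751, 58.8% GC) hold an ETS motif, shown in capitals, from 17 to 11 bases before the start. The window of 300 bases has 1 more ETS match, which reaches past the start.

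Mrpl58: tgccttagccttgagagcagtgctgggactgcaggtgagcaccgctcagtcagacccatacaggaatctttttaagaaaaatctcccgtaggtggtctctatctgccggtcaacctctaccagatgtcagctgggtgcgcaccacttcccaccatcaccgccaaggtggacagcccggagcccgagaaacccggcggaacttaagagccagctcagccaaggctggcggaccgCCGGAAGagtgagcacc

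Among the other large subunit genes specific to mitochondria, Mrpl51 and Mrpl54 had an unadjusted p under 0.05 in the 10 libraries. Mrpl51 stood at 42.4, 42.0, 47.0, 40.2 and 37.2 per M in wild type 2 to 6, and at 41.9, 38.9, 35.9, 31.1 and 33.6 in knockout 1 to 5. Wild type 6 lay below knockout 1 and 2, so that the groups overlapped. Its log2 fold change was -0.20 ± 0.09 (SE, limma adjusted p = 0.507), and in the 8 libraries -0.25 ± 0.10 (0.292). Mrpl54 ranged from 22.1 to 25.7 in wild type and from 18.8 to 22.9 in knockout, where knockout 4 alone exceeded the lowest wild type library, and its log2 fold change was -0.19 ± 0.09 (SE, limma adjusted p = 0.513), with -0.19 ± 0.10 (0.445) in the 8. Mrpl52 had -0.18 ± 0.10 and Mrpl50 -0.09 ± 0.11 in the 10 libraries, and -0.20 ± 0.11 and -0.21 ± 0.10 in the 8. Mrpl38 (0.02), Mrpl39 (0.04) and Mrpl43 (0.02) lay at 0 within their SE of about 0.10, and at 0.07, 0.09 and 0.01 in the 8 libraries.

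Among large subunit genes with a bacterial counterpart, Mrpl11 had the lowest fold change and the second largest spread. It stood at 7.99, 9.41, 9.70, 8.81 and 8.02 per M in wild type 2 to 6, and at 6.70, 10.5, 7.18, 4.23 and 7.16 in knockout 1 to 5. Knockout 2 held the highest value of all and knockout 4 the lowest, and the log2 fold change of -0.32 ± 0.18 (SE, limma adjusted p = 0.584) is within that spread, as is -0.35 ± 0.20 (0.475) in the 8. Mrpl27, counterpart of a protein near the bacterial peptidyl transferase centre, had -0.26 ± 0.13, Mrpl15 -0.26 ± 0.14 and Mrpl28 -0.15 ± 0.10. Mrpl14 and Mrpl18 each had -0.10, with SE of 0.09 and 0.08. Mrpl48, Mrpl47, Mrpl35 and Mrpl9 lay between -0.03 and 0.004, the first of them specific to mitochondria. Mrpl27 in the 8 libraries had -0.25 ± 0.15, Mrpl15 -0.17 ± 0.16, Mrpl28 -0.16 ± 0.10, Mrpl14 -0.10 ± 0.11 and Mrpl18 -0.14 ± 0.09, and the last 4 lay between -0.06 and 0.014.

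Mrpl32 had the highest fold change of the family, and its 3 highest libraries were the 3 female ones. Its product, the counterpart of bacterial L32, is matured by the m-AAA protease of the inner membrane before it joins the ribosome. It stood at 38.0, 23.7, 26.4, 20.5 and 20.9 per M in wild type 2 to 6, and at 24.9, 35.8, 41.8, 20.3 and 26.9 in knockout 1 to 5. The highest values were those of wild type 2, knockout 2 and knockout 3, and the 7 male libraries lay between 20.3 and 26.9 in both genotypes. The female mean was 38.5 ± 3.03 (SD, n = 3) and the male mean 23.4 ± 2.86 (SD, n = 7), a ratio of 1.65. Of all genes tested, 2.03% were higher in every female than in every male library. Mrpl32 was the 1 gene of the 76, which is below that share. The sexes were read from values of the same libraries, and no test between them is given. Within the lower-numbered mice the 3 female libraries are also the 3 with low Rbck1, so that sex and the deletion cannot be told apart there, and wild type 2 is a library whose label its Rbck1 level goes against.

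The genotype difference of Mrpl32 depended on which libraries and terms entered. The log2 fold change was 0.20 ± 0.18 (SE, limma adjusted p = 0.753) in the 10 libraries and 0.39 ± 0.17 (0.329) in the 8, and with sex as a covariate 0.06 ± 0.10 and 0.04 ± 0.14. Within the higher-numbered mice, all male, it was 0.06 ± 0.16. In the lower-numbered mice without wild type 2 and knockout 1, which leaves 1 male wild type and 2 female knockout libraries, it was 0.69 ± 0.16 and passed (limma adjusted p = 0.0335, with 1.42% of all genes called), with the lone wild type library assumed to vary like the others. Mrpl32 (chr13:14608184-14613165, minus strand) lies head to head with Psma2, which encodes a proteasome subunit. Psma2 stood at 103, 107 and 96.2 per M in the female libraries and between 70.7 and 95.9 in the male libraries, the same order by a narrow margin. Before the RefSeq start of Mrpl32, matches to the NRF1 motif stand in 2 places, shown in capitals in 30-base stretches on the minus strand: chr13:14613105-14613134, where 2 matches overlap, and chr13:14613041-14613070.

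Mrpl32, 97 to 68 bases before the start: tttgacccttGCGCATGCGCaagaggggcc
Mrpl32, 33 to 4 bases before the start: gcggacttaaCGCATGCGCtcagcccgcgt

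**Figure D4:**
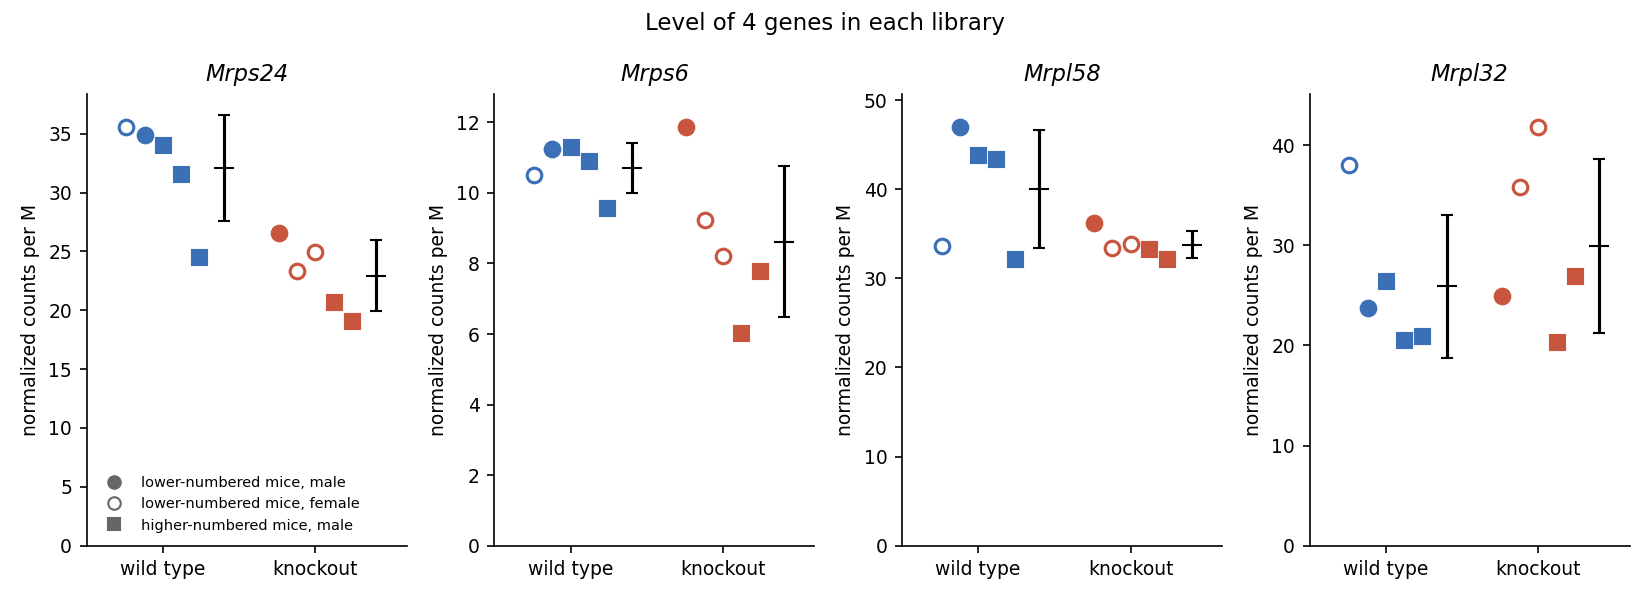
Level of Mrps24, Mrps6, Mrpl58 and Mrpl32 in each library, in normalized counts per M from 0. Blue is wild type and red knockout, circles are the lower-numbered and squares the higher-numbered mice, open symbols are females, and the bars give the mean and SD of 5 libraries. The 3 open symbols are the highest for Mrpl32 in either genotype, and the lowest wild type square for Mrps24 and Mrpl58 is wild type 6.

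Small subunit genes other than Mrps24 and Mrps6 lay close together. Mrps34 stood at -0.22 ± 0.11, Mrps17 at -0.17 ± 0.10, Mrps10 at -0.16 ± 0.12 and Mrps22 at -0.16 ± 0.18 (log2 fold change ± SE, 10 libraries). The same 4 in the 8 libraries had -0.19 ± 0.12, -0.22 ± 0.11, -0.14 ± 0.14 and -0.13 ± 0.17. Mrps34 overlaps Mapk8ip3 on the opposite strand over 63.4% of its exon bases. Mrps21 (-0.07), Mrps9 (-0.05), Mrps25 (-0.005) and Mrps5 (0.04) lay within their SE of 0, in the 8 libraries too (-0.05, 0.05, 0.003 and 0.02). The 3 Mrps18 paralogs, which occupy separate sites in the ribosome, had log2 fold changes of -0.22 ± 0.12 for Mrps18c, the form that takes the bacterial position, -0.06 ± 0.14 for Mrps18b and -0.04 ± 0.11 for the large subunit form Mrps18a. Mrps30, the large subunit protein with a small subunit symbol, had 0.05 ± 0.11, and Mrps36 had -0.17 ± 0.13. Mrps18c in the 8 libraries had -0.26 ± 0.14, Mrps18b -0.07 ± 0.14, Mrps18a -0.03 ± 0.12, Mrps30 0.08 ± 0.12 and Mrps36 -0.18 ± 0.13.

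Between the sets of mouse numbers, 0 of the 76 genes passed and 81 of 12946 did (limma, 0.626%). At an unadjusted p under 0.05, 12 of the 76 were lower in the higher-numbered mice and 0 higher, beside 7.55% and 8.22% of all genes. The median log2 difference, higher-numbered minus lower-numbered, was -0.13 with 65 of 76 genes below 0, beside a median of -0.11 between genotypes. Within the lower-numbered mice the genotype median was -0.13 with 67 of 76 below 0 and 0 of 12946 genes called (0%), and within the higher-numbered mice -0.10 with 65 of 76 below 0 and 41 of 12946 called (0.317%), none of the 76. The test of the difference between the 2 sets called 2 of 12946 genes (0.0154%) and 0 of the 76, of which 4 had an unadjusted p under 0.05, beside 5.92% of all genes. The smallest adjusted p there was 0.684 by limma, for Mrps9, with a difference of 0.57 ± 0.20.

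Several genes of the family lie within 1000 kb of genes that differed between genotypes in the 8 libraries, the nearest being Mrpl44. The share of all genes tested that lie so near a called gene was not counted. Mrpl44, a protein of the large subunit related to ribonuclease III, starts head to head with Wdfy1 and shares 126 exon bases with it on the opposite strand. Wdfy1 stood at 8.95 to 15.1 in wild type 3 to 6 and at 86.8 to 107 in knockout 2 to 5, a log2 fold change of 2.97 (limma adjusted p = 1.77e-09). Mrpl44 stood at 17.3, 21.0, 19.5, 20.1 and 16.1 in wild type 2 to 6 and at 17.5, 15.9, 19.6, 19.6 and 18.2 in knockout 1 to 5. The groups overlapped throughout, and its log2 fold change in the 8 libraries was -0.06 ± 0.11 (SE, limma adjusted p = 0.853). Mrps24, at -0.49 ± 0.12 and not called, lies 254 kb from Camk2b, a kinase gene with a log2 fold change of 2.40 (limma adjusted p = 0.0294). Mrps18b lies 467 kb from H2-Q7, a class I gene of the major histocompatibility complex with a log2 fold change of 2.23, and itself had -0.07 ± 0.14 in the 8 libraries. Mrps30 lies 948 kb from Nnt (1.51) and had 0.08 ± 0.12, and Mrpl34 lies 68.5 kb from Bst2 (0.78) and had -0.17 ± 0.12. Nnt stood at 18.7 to 27.8 in wild type 3 to 6 and at 51.4 to 74.8 in knockout 2 to 5. It stood at 74.5 in wild type 2 and at 30.1 in knockout 1. For these neighbours, the knockout and any difference in genetic background between the groups cannot be told apart.

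A head-to-head partner was common in the family. A gene on the other strand started within 1000 bases in 33 of 76 protein coding members (43.4%), beside 14.6% of all protein coding genes in the table. Mrpl46 and Mrps11 form such a pair with each other, and other partners include Ndufs6 of complex I beside Mrpl36, the mitochondrial helicase gene Twnk beside Mrpl43 and the mitochondrial seryl-tRNA synthetase gene Sars2 beside Mrps12. RefSeq promoter windows of 300 bases, 250 before and 50 after each start (GRCm38.p6), were at hand for 67 genes of the family in 73 windows. They were searched on both strands for 3 motifs of factors known to act on nuclear genes of mitochondrial proteins, NRF1 (GCGCATGCG), the ETS motif that GABPA binds (CCGGAAG) and YY1 (AAGATGGCG). The ETS motif was found in 24 of the 67 genes (35.8%), beside 9.93% of all 27025 genes with a window. NRF1 was found in 7 (10.4%, beside 1.95%) and YY1 in 8 (11.9%, beside 1.64%). The 27025 genes include many that are not among the 16154 in the table, while all 67 of the family were tested, so the 2 sets are unlike. These matches are a description of the letters in these windows.

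Other genes of mitochondrial translation are given list by list, and no test between lists was made. The 5 mitochondrial ribosomal proteins with other symbols (Dap3, Ptcd3, Chchd1, Aurkaip1 and Gadd45gip1) were all below 0, with a median log2 fold change of -0.15 in the 10 libraries and lowest in Aurkaip1 (-0.21 ± 0.10). Ribosome assembly and rRNA maturation factors had 16 of 24 below 0 and a median of -0.04, with Rbfa (-0.37 ± 0.12), which acts in the maturation of the small subunit, lowest. Translation factors and mRNA handling proteins had 9 of 15 below 0 and a median of -0.04. Mitochondrial aminoacyl-tRNA synthetases had 7 of 17 below 0 and a median of 0.03. Regulators of mitochondrial transcription and biogenesis had 4 of 12 below 0 and a median of 0.10, with Ppargc1b (0.50 ± 0.28), Ppargc1a (0.29 ± 0.14) and Gabpa (0.18 ± 0.07) as the 3 of smallest p. No gene of these lists passed limma in the 10 libraries, where no gene at all did. In the 8 libraries, where 0 genes of these 5 lists passed, the medians in the same order were -0.15, -0.02, -0.03, 0.07 and 0.05, with 5 of 5, 14 of 24, 9 of 15, 8 of 17 and 6 of 12 below 0. There Aurkaip1 had -0.31 ± 0.10, Rbfa -0.34 ± 0.14, Ppargc1b 0.69 ± 0.29, Ppargc1a 0.18 ± 0.15 and Gabpa 0.15 ± 0.08.

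Within the 8 libraries, both ribosomal RNAs of the same ribosome were lower in every knockout than in every wild type library. The same held for 2.87% of all genes tested. The 12S rRNA mt-Rnr1 stood at 373, 636, 758, 634 and 574 per M in wild type 2 to 6, and at 710, 443, 409, 385 and 322 in knockout 1 to 5. Wild type 2 lay with the knockout libraries and knockout 1 with the wild type libraries. The log2 fold change was -0.41 ± 0.19 (SE, limma adjusted p = 0.510) in the 10 libraries, and in the 8 libraries mt-Rnr1 fell by 0.74 ± 0.10 (limma adjusted p = 0.00163). The 16S rRNA mt-Rnr2 stood at 1078, 1803, 2381, 2059 and 1850 per M in wild type 2 to 6, and at 1982, 1316, 1355, 1353 and 1189 in knockout 1 to 5, with the same 2 libraries on the side of the other group. Its log2 fold change was -0.33 ± 0.17 (SE, limma adjusted p = 0.573) in the 10 libraries, and it fell by 0.63 ± 0.09 in the 8 libraries (limma adjusted p = 0.00293). In these libraries of polyA RNA, the rRNA values depend on how much of it the selection let through, a step whose part was not tested. In the same 8 libraries the protein genes had a median of -0.13, with Mrps24, the lowest, at -0.49.

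**Figure D5:**
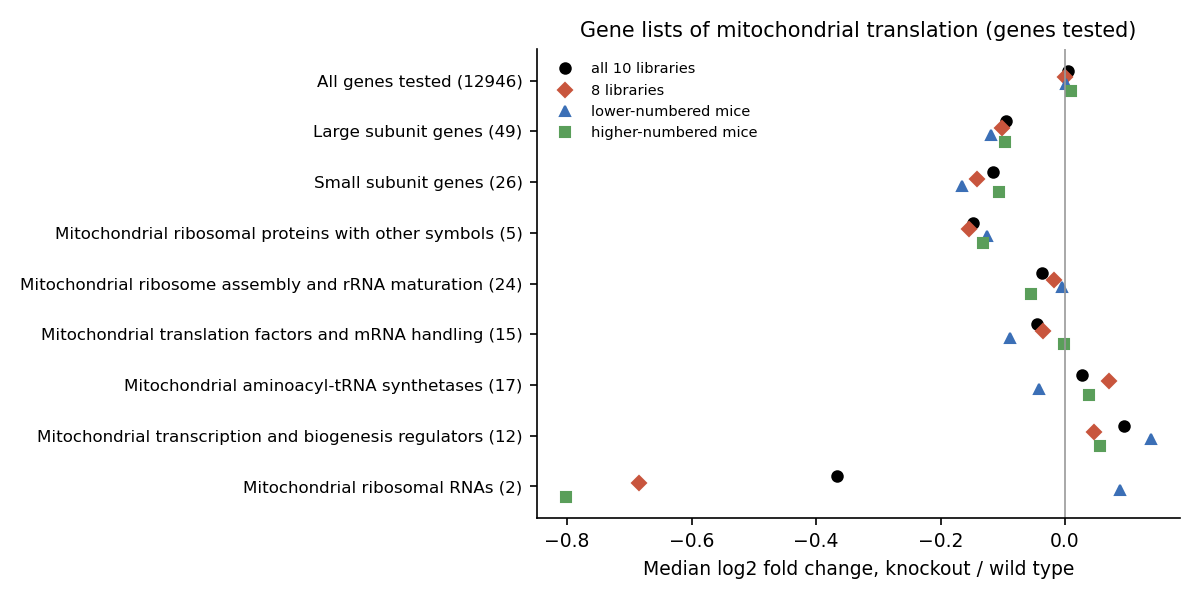
Median log2 fold change (knockout over wild type) of the lists of mitochondrial translation genes and of all genes tested, with the number of genes tested in brackets. Black circles are 10 libraries, red diamonds the 8 libraries without wild type 2 and knockout 1, blue triangles the lower-numbered mice and green squares the higher-numbered. Both subunits lie between -0.17 and -0.10 in all 4 comparisons, while the 2 rRNAs range from -0.80 to 0.09.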

How the data were processed

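The authors deposited 1 table of normalized counts, a signal that is never negative, for 16154 genes in 10 libraries. Per the submitters' processing notes, the authors used bcl2fastq 2.17, edgeR 3.14.0 and build mm10. Which aligner, annotation, strand setting and scaling they used is not given in the sources used here. Libraries were matched to columns by title and grouped by the genotype label. Each value was divided by the mean total of the 10 columns (7.14 M, where M stands for mega). The 12946 genes that reached 1 per M in 5 or more libraries were tested with limma-trend (limma 3.58.1, R 4.3.3) on log2(value per M + 0.5), two-sided, without covariates, with Benjamini-Hochberg adjustment over all genes and a threshold of 0.05. Fold changes on this scale understate those of low genes. The procedure was tested on simulated data. Symbols, coordinates and exon lengths come from GENCODE M21 (GRCm38), which held 16026 of the IDs, and promoter sequences from RefSeq (GRCm38.p6). TMM factors, used in 1 alternative, were computed from their published formula. Python 3.11.15 served for the rest.

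The members follow from their symbols. The members, the gene lists and the tests were chosen with earlier results of these data known. Members named singly are those with the smallest p on either side in the 10 or the 8 libraries, the highest and lowest per kb, the most and least variable, the Mrps18 paralogs, Mrps24, Mrps30, Mrps36 and any not tested; of each other list, genes with the smallest p. Mrpl44 and Psma2 were added for their neighbours or values. Alternatives were other pseudocounts, filters and scalings, the mouse number set, sex or replicate number as terms, removal of the exon length trend, and leaving out libraries. Those that combine the 8 libraries with another change, replicates 2 to 5 without the block, and the lower-numbered mice without the same pair, were chosen after seeing the data.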

Additional observations from a re-analysis of the deposited data

Results flagged for a closer look

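Within a group of 5 libraries, a value was singled out where its gap to the nearest other exceeded 0.71 of the range of the group. Of 72 groups examined, 2 held such a value, where chance gives about 1 group in 20. Mrpl9 stood at 29.4 per M in wild type 6, against 33.7 to 34.6 in the other wild type libraries. Mrpl38 stood at 26.3 per M in knockout 4, against 30.4 to 31.9 in the other knockout libraries. Neither gene had a fold change beyond its SE, and no gene of the family passed the test of the difference between the sets of mouse numbers.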

How the results depend on the processing

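With all 10 libraries, no gene at all passed limma. The share of all genes called was 0.402% without wild type 2 and knockout 1, 0.317% in the higher-numbered mice alone, 2.0% with the replicate number as a block and 0.17% in the same libraries without it, 0.00772% with the mouse number set as a covariate, and in the 8 libraries 0.209% with sex, 0.409% with the exon length trend removed and 0.541% with the mouse number set. It was 1.42% in the lower-numbered mice without the same pair. Leaving out each library gave 0% to 0.772%, the highest in the 8 libraries without wild type 6, and of the 10 libraries 0.0309% without knockout 1 and 0% without each other one. The count of Mrpl and Mrps genes was 0 in 32 of 37 alternatives. It was 1 with the replicate block and 1 in the same libraries without it (Mrps24 in both), 1 in the 8 libraries with the mouse number set (Mrps24), 1 in the lower-numbered mice without the pair (Mrpl32), and 0 to 2 when leaving out each library, with Mrpl58 and Mrps24 in the 8 libraries without wild type 6. The cause was not tested. The count was 0 in all 19 alternatives for the mouse number sets and for their interaction with genotype.

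The median of the family stayed below 0 in all 38 settings, from -0.20 to -0.07, while that of all genes ran from -0.009 to 0.030, and between 58 and 72 of the 76 genes were below 0. Scaling by TMM, equal totals or median ratios left the direction as it was.

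Same-numbered libraries of the 2 genotypes had correlations of their deviations of 0.31, 0.03, 0.099 and 0.079, so the numbers were not taken to pair mice, and with the replicate block as fitted on replicates 2 to 5 Mrps24 stood at -0.62 (limma adjusted p = 0.0099). Of 8 libraries with a same-numbered one, 3 correlated best with it.

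Of 35 named members, 18 kept the sign of their log2 fold change in all 37 alternatives. The others did not all lie near 0. Over all settings Mrpl50 ran from -0.33 to 0.095, Mrps9 from -0.38 to 0.20 and Mrpl39 from -0.16 to 0.24. The others had the opposite sign, never with a call, in these settings as follows. In the 8 libraries these were Mrpl47 (0.014), Mrpl9 (-0.024), Mrps25 (0.0031) and Mrps9 (0.047). In the lower-numbered mice these were Mrpl38 (-0.12), Mrpl39 (-0.16), Mrpl43 (-0.018), Mrpl50 (0.095), Mrpl9 (-0.012), Mrps18b (0.038) and Mrps30 (-0.015). In the higher-numbered mice these were Mrpl43 (-0.0077), Mrpl44 (0.027), Mrpl47 (0.041), Mrpl9 (-0.029), Mrps25 (0.10), Mrps5 (-0.059) and Mrps9 (0.20). With equal totals these were Mrpl35 (0.023), Mrpl47 (0.024) and Mrps25 (0.021). With TMM factors these were Mrpl9 (-0.0070). With median-ratio factors these were Mrpl9 (-0.0050). With the replicate block and in the same libraries without it these were Mrpl43 (-0.074), Mrpl9 (-0.082) and Mrps30 (-0.014). With the mouse number set as a covariate these were Mrpl38 (-0.025), Mrpl43 (-0.013), Mrpl9 (-0.021) and Mrps25 (0.010). With sex as a covariate these were Mrpl38 (-0.013), Mrpl9 (-0.0039) and Mrps25 (0.012). With the length trend removed these were Mrpl35 (0.00064), Mrpl44 (0.015), Mrps21 (0.00037) and Mrps5 (-0.0051). In the 8 libraries with sex as a covariate these were Mrpl43 (-0.063), Mrpl47 (0.0035), Mrpl9 (-0.053), Mrps25 (0.10), Mrps30 (-0.017) and Mrps9 (0.11). In the 8 libraries with the length trend removed these were Mrpl44 (0.012), Mrpl47 (0.010), Mrps21 (0.043), Mrps5 (-0.025) and Mrps9 (0.017). In the 8 libraries with the mouse number set as a covariate these were Mrpl43 (-0.032), Mrpl9 (-0.042), Mrps25 (0.031) and Mrps9 (0.025). In the lower-numbered mice without wild type 2 and knockout 1 these were Mrpl38 (-0.063), Mrpl39 (-0.12), Mrpl43 (-0.075), Mrpl9 (-0.066) and Mrps18a (0.038). The 18 that kept their sign moved in size when 1 library was left out of the 10 or the 8, with ranges for Mrpl11 from -0.54 to -0.13, Mrpl15 from -0.37 to -0.083, Mrpl18 from -0.16 to -0.070, Mrpl27 from -0.40 to -0.16, Mrpl28 from -0.25 to -0.096, Mrpl32 from 0.066 to 0.58, Mrpl51 from -0.31 to -0.15, Mrpl52 from -0.29 to -0.12 and Mrpl54 from -0.23 to -0.14. Their ranges were for Mrpl58 from -0.43 to -0.16, Mrps10 from -0.27 to -0.062, Mrps17 from -0.29 to -0.14, Mrps18c from -0.39 to -0.14, Mrps22 from -0.29 to -0.045, Mrps24 from -0.60 to -0.41, Mrps34 from -0.30 to -0.071, Mrps36 from -0.28 to -0.089 and Mrps6 from -0.53 to -0.21. Mrpl50 ran from -0.27 to -0.024 and Mrps30 from 0.0023 to 0.12. Over all settings that leave out 1 library, the values ran for Mrpl14 from -0.19 to 0.0035, for Mrpl35 from -0.12 to 0.072, for Mrpl38 from -0.030 to 0.13, for Mrpl39 from -0.020 to 0.16, for Mrpl43 from -0.096 to 0.078, for Mrpl44 from -0.14 to 0.00046, and for Mrpl47 from -0.043 to 0.060. They ran for Mrpl48 from -0.092 to 0.0011, for Mrpl9 from -0.077 to 0.018, for Mrps18a from -0.13 to 0.050, for Mrps18b from -0.15 to 0.026, for Mrps21 from -0.17 to 0.047, for Mrps25 from -0.036 to 0.037, for Mrps5 from -0.073 to 0.11, and for Mrps9 from -0.11 to 0.14.

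Depth limits the lowest members most, of which Mrps22 had the lowest mean, 6.22 per M. For all genes whose exons overlap another, reads may have been added to the value or withheld from it. Each group had 5 libraries, and 2 of the 10 were at odds with their label. In the 10 libraries the 95% intervals of 73 of 76 genes lay within 1.5-fold of no change. These intervals are not adjusted for the number of genes tested, so they do not mark the size of difference that would be called. Mrps24 in the 8 libraries had an interval from -0.75 to -0.23 and was not called (limma adjusted p = 0.0977).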
